A study of Mus musculus with 6 samples.

Results

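The genes followed here encode 7 transcription regulators of oocyte growth and identity: Figla, Nobox, Sohlh1, Sohlh2, Lhx8, Taf4b and Pou5f1. They were chosen by name and are 7 of the 54532 genes in the count table. The libraries came from oocytes of C57BL/6J mice whose labelled age was 6 to 7 weeks, 3 labelled control and 3 labelled AMH treated. AMH, anti-Müllerian hormone, is a TGF-beta family hormone that granulosa cells of growing follicles make, and the treated mice received 300 ng of the recombinant mouse protein, expressed in E. coli, into the peritoneum each day starting at 21 days of age. The labels leave unstated the number and stage of the oocytes, whether cumulus cells were stripped, whether control mice were injected, and whether each library was a separate animal, so p-values here measure the spread between libraries, which may be technical.

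FIGLA, SOHLH1 and SOHLH2 are basic helix-loop-helix (bHLH) proteins that bind E-boxes, short DNA words of the form CANNTG. NOBOX and LHX8 are homeodomain proteins, LHX8 with LIM domains as well. In mice SOHLH1, SOHLH2, NOBOX, LHX8 and FIGLA are required for primordial oocytes to survive or to begin growth. TAF4B, which germ cells express, is a form of a subunit of TFIID, the complex that recruits RNA polymerase II to promoters. POU5F1 (OCT4) is the pluripotency factor that oocytes keep making as they grow.

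The DNA just upstream of 5 of these genes is shown because several of the proteins are E-box or homeodomain binders thought to act on one another's genes. Each stretch runs 5′ to 3′ on the gene's strand and ends at or before the annotated start of transcription in RefSeq (GRCm38.p6), with E-boxes in capitals. Promoter entries were searched for 6 of the 7 genes, and Taf4b was not searched.
Sohlh1, chr2:25847249-25847498, minus strand: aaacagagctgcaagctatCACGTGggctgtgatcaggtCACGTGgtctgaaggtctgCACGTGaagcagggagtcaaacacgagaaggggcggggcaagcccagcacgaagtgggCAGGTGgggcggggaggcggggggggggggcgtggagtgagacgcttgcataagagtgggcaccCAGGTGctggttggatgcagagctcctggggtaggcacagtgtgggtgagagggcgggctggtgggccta
Figla, chr6:86016941-86017190, plus strand: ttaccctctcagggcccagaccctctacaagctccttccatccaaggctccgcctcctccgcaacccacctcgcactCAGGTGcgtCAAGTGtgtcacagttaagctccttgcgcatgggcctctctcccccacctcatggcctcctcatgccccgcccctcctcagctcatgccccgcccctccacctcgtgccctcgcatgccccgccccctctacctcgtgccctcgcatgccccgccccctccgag
Sohlh2, chr3:55181794-55182027, plus strand: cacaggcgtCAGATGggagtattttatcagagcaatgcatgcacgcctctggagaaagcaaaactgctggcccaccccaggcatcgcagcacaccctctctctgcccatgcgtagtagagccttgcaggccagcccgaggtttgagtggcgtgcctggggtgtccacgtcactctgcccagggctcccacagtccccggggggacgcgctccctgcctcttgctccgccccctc
Nobox, chr6:43309555-43309804, minus strand: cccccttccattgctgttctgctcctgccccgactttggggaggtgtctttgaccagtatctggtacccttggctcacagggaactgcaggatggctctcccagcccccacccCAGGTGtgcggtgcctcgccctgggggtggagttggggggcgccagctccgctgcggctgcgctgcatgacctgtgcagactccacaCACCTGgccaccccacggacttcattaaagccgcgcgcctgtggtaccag
Lhx8, chr3:154330660-154330810, minus strand: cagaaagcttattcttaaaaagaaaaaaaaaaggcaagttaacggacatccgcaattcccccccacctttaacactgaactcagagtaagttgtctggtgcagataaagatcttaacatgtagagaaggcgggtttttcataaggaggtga

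The Sohlh1 window held 5 E-boxes, the most of the 6, and 3 of them were the palindrome CACGTG, at 192, 211 and 231 bases before the start. Of 32851 RefSeq promoter windows of 250 bases, 1.15% held 5 or more E-boxes and 0.0609% held 3 or more CACGTG words, which are themselves E-boxes. The Figla and Nobox windows held 2 E-boxes each, those of Sohlh2 and Pou5f1 held 1, and that of Lhx8 held none, while 66.2% of all windows held at least 1. Pou5f1 had 2 RefSeq start windows, and only the first listed is described here. Figla had 4 GC boxes (GGGCGG, either strand), a count of 4 or more that 4.09% of windows reached, and its window lies in an intron of a second, non-coding Figla model that starts upstream. None of the 6 windows held the NOBOX word TAATTG, found in 7.17% of windows on either strand, or the octamer ATGCAAAT, found in 1.6%. TATAAA, in 12.4% of windows, was absent from them as well.

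The 6 libraries held 66392859 to 72109080 counts each, and values below are CPM, counts per 1000000 of the TMM-scaled library size. All 29 oocyte markers, which include Gdf9 and H1foo but none of the 7 genes, were counted in every library, with summed levels of 49352 to 61799 CPM in the controls and 28687 to 46381 CPM in AMH libraries. The 22 cumulus and granulosa markers were also counted in every library, at 1225 to 5689 CPM in the controls and 5169 to 6363 CPM in AMH libraries. Controls 1 and 2 were the lowest in this sum, and control 3 lay within the AMH range. Of the 22, 5 were higher and 1 was lower in every AMH library than in every control, beside 26.9% and 23.3% of all genes tested. Markers of other cell types were counted at lower levels. The 8 immune markers summed to 14.1 to 35.2 CPM in the controls and 78.6 to 107 CPM in AMH libraries, and 8 oviduct and cilia markers to 21.1 to 170 and 139 to 721 CPM. The 5 blood markers summed to 1.11 to 5.64 CPM in the controls and 22.8 to 357 CPM in AMH libraries, while 5 endothelial markers summed to 183 to 222 and 105 to 177 CPM. Pecam1 made up most of the endothelial sum, at 170 ± 21.9 CPM in the controls and 110 ± 29.8 CPM with AMH (SD). Cdh5 lay the other way, at 0.754 ± 0.730 and 2.11 ± 0.467 CPM. Of these 5, 2 were lower and 1 was higher in every AMH library than in every control, beside 23.3% and 26.9% of all genes tested. No marker of any list was at 0 in all 6 libraries, and the part of the immune, oviduct, blood and endothelial markers in the results was not tested. Over all genes, control 3 and AMH 3 were the most alike pair of libraries, across the labelled groups, with a chi-square per degree of freedom of 55.9 against 66.0 for controls 1 and 2. Results are therefore given with and without control 3 and AMH 3.

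Of the 7 genes, 6 had enough counts to be tested between AMH and control oocytes, and all 6 had lower mean levels in the AMH libraries, as 50.3% of all genes tested did by their fold change. None passed edgeR's quasi-likelihood test at an adjusted p of 0.05, where 0% of the 18868 genes tested were called in the lower direction and 0% in the higher, the lowest adjusted p of all being 0.116. At an unadjusted p under 0.05, 5 of the 6 were lower, all but Pou5f1, against 17.3% of all genes tested, with 20.2% higher. In Figla, Sohlh2, Lhx8 and Taf4b every AMH library lay below every control, a pattern shared by 23.3% of all genes tested, with 26.9% the other way. The same pattern was present in 24 of the 29 oocyte markers, so it was not particular to these genes. The median log2 fold change (AMH over control) of the 6 was -0.78, beside -0.01 for all genes tested. In bulk RNA of this kind, fewer cells of a type and less RNA per cell cannot be told apart. The lower oocyte marker sums of AMH libraries stand beside each of these values. So do their cumulus marker sums, which were higher on average but overlapped those of the controls.

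**Figure D1:**
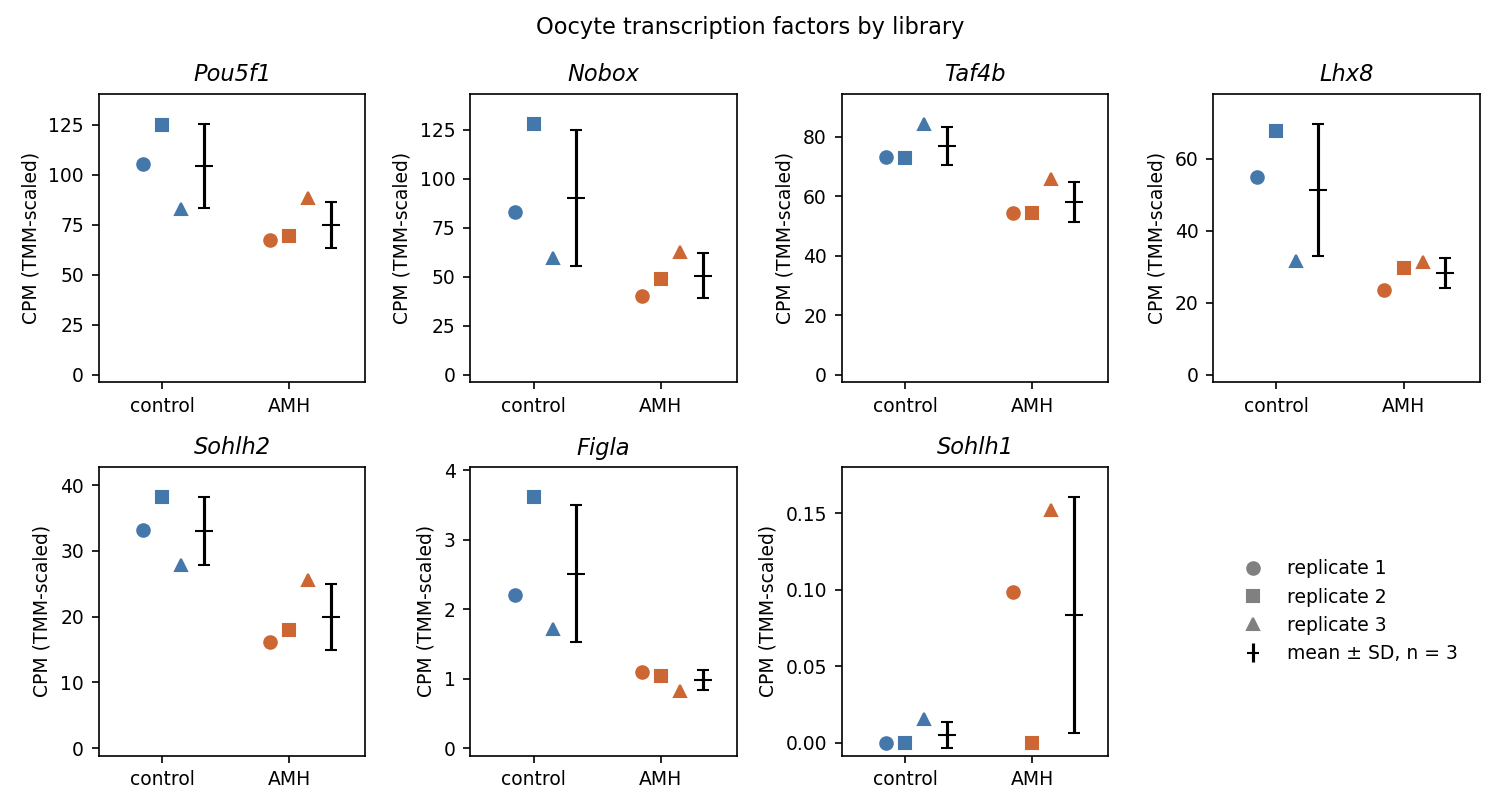
Each panel gives 1 gene, with TMM-scaled CPM on the vertical axis, 1 point per library, marker shape for the replicate number, and a bar for the mean ± SD of 3 libraries. Figla, Sohlh2, Lhx8 and Taf4b show no overlap between control and AMH, Nobox and Pou5f1 overlap through control 3 and AMH 3, and Sohlh1 is near 0 in all libraries.

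Figla, the bHLH activator of the zona pellucida genes (chromosome 6, 86016171 to 86020996, plus strand, GRCm38), was scarce. It had 2.20, 3.62 and 1.71 CPM in controls 1, 2 and 3, from 142, 232 and 113 counts. In AMH 1, 2 and 3 it had 1.10, 1.03 and 0.824 CPM, from 89, 79 and 54 counts. All 3 AMH libraries were below all 3 controls, and control 2 was the highest of the 6. The means were 2.51 ± 0.988 CPM and 0.985 ± 0.143 CPM (SD, n = 3 each). This was the largest difference among the 6 tested genes, with a log2 fold change of -1.35 (SE 0.38) and an edgeR adjusted p of 0.116. DESeq2, which called 7.78% of all genes lower and 16.3% higher, gave Figla an adjusted p of 0.0192. Without control 3 the edgeR log2 fold change was -1.57 (adjusted p = 0.0229), and without control 2 it was -1.002 (adjusted p = 0.186).

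Sohlh2, a bHLH partner of SOHLH1 in young oocytes (chromosome 3, 55182028 to 55209957, plus strand), had 33.1, 38.1 and 27.8 CPM in the controls. AMH libraries 1 to 3 had 16.2, 17.9 and 25.6 CPM. The groups did not overlap, but the highest AMH library, AMH 3, came close to the lowest control, control 3. Means were 33.0 ± 5.15 and 19.9 ± 5.03 CPM (SD, n = 3 each), a log2 fold change of -0.73 (SE 0.25, edgeR adjusted p = 0.117). DESeq2 put Sohlh2 just past the threshold, at an adjusted p of 0.0479. Leaving out control 3 moved edgeR's adjusted p for it to 0.0430.

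Sohlh1, the other member of that pair (chromosome 2, 25842995 to 25847248, minus strand), was barely detected. Its counts were 0, 0 and 1 in the controls and 8, 0 and 10 in AMH 1, 2 and 3. Controls 1 and 2 and AMH 2 had none, so the groups overlapped, and a count of 0 allows up to 3 counts, or 0.0370 to 0.0468 CPM depending on the library. The filter on low counts removed Sohlh1 before testing. Pooled over libraries there were 18 counts with AMH and 1 in the controls, a ratio of 15.7 after scaling by effective library size, with a 95% exact interval of 2.48 to 654 that covers counting error only and rests on a single control count.

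Nobox, the homeobox activator of Gdf9 and Bmp15 (chromosome 6, 43303674 to 43309554, minus strand), had 83.0, 128 and 59.4 CPM in controls 1, 2 and 3. In AMH 1, 2 and 3 it had 39.9, 48.7 and 62.6 CPM. Here AMH 3 exceeded control 3, so the groups overlapped. Means were 90.1 ± 34.9 and 50.4 ± 11.5 CPM (SD, n = 3 each), with a log2 fold change of -0.84 (SE 0.32, edgeR adjusted p = 0.121). The control spread was wide, and without control 3 the log2 fold change was -1.07 (edgeR adjusted p = 0.0286), while without control 2 it was -0.51 (adjusted p = 0.246).

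Lhx8, the LIM homeobox factor of primordial oocytes (chromosome 3, 154306294 to 154330659, minus strand), had 54.9, 67.8 and 31.6 CPM in the controls. AMH 1, 2 and 3 had 23.4, 29.6 and 31.4 CPM. Control 3 and AMH 3 were almost equal, and only this narrow gap kept the groups from overlapping. With unscaled library sizes they crossed, at 29.8 CPM in control 3 against 34.0 and 31.0 CPM in AMH 2 and AMH 3. Means were 51.4 ± 18.3 and 28.2 ± 4.18 CPM (SD, n = 3 each), a log2 fold change of -0.87 (SE 0.30, edgeR adjusted p = 0.118). Without control 3 it was -1.13 (adjusted p = 0.0180), the lowest adjusted p that any of the 6 genes had in that edgeR fit.

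Taf4b, the TFIID subunit (chromosome 18, 14783245 to 14900359, plus strand), was the least variable of the 6 within the controls. It had 73.2, 73.0 and 84.4 CPM in controls 1, 2 and 3. AMH 1, 2 and 3 had 54.2, 54.2 and 65.8 CPM. The groups were separate, and within each group replicate 3 was the highest. In Nobox, Lhx8, Sohlh2, Figla and Pou5f1, by contrast, control 3 was the lowest control. Taf4b means were 76.8 ± 6.53 and 58.1 ± 6.67 CPM (SD, n = 3 each), the smallest difference of the 6, with a log2 fold change of -0.40 (SE 0.16, edgeR adjusted p = 0.127).

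Pou5f1, the POU homeodomain factor (chromosome 17, 35506018 to 35510772, plus strand), had 105.4, 125.2 and 83.0 CPM in the controls. It had 67.4, 69.3 and 88.4 CPM in AMH 1, 2 and 3. AMH 3 was above control 3, so the groups overlapped, while AMH 1 and AMH 2 were below all 3 controls. Means were 105 ± 21.1 and 75.0 ± 11.6 CPM (SD, n = 3 each), with a log2 fold change of -0.48 (SE 0.21, edgeR adjusted p = 0.140). Its antisense neighbour Gm19553 had 0 counts in all 6 libraries.

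Whether the genes passed depended on control 3. With it left out, edgeR placed 5 of the 6 genes past the threshold, all but Taf4b, in a fit that called 7513 genes in all and 11.2% of those tested lower. With AMH 3 left out none of the 6 passed, while 1607 genes did and 6.73% of those tested were called lower. Leaving out either library left all 6 with no overlap between the groups. Every AMH library was then below every control in 35.1% of all genes tested without control 3 and in 34.5% without AMH 3. DESeq2 on all 6 libraries put Nobox, Lhx8, Taf4b and Pou5f1 at adjusted p of 0.0741, 0.0593, 0.0908 and 0.145, so only Figla and Sohlh2 passed there. With all 6 libraries kept but weighted by their quality in limma-voom, all 6 genes passed, in a fit that called 35.7% of all genes lower.

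Levels of different genes can be set against each other only per length, for which the deposited FPKM values (fragments per kilobase and library size) were used. In the controls Pou5f1 stood at 44.6 ± 9.32, Nobox at 43.0 ± 16.8, Lhx8 at 19.5 ± 7.07, Taf4b at 14.3 ± 1.05, Sohlh2 at 13.4 ± 2.18, Figla at 2.88 ± 1.14 and Sohlh1 at 0.00371 ± 0.00642 FPKM (SD, n = 3 each). In AMH libraries Pou5f1 stood at 32.3 ± 4.03, Nobox at 24.2 ± 4.82, Taf4b at 10.9 ± 0.929, Lhx8 at 10.8 ± 1.41, Sohlh2 at 8.14 ± 1.80, Figla at 1.15 ± 0.195 and Sohlh1 at 0.0623 ± 0.0568 FPKM. In the controls Pou5f1 and Nobox did not differ beyond their spread, nor did Lhx8, Taf4b and Sohlh2 among themselves. With AMH, every Pou5f1 value was above every Nobox value and every Taf4b value above every Sohlh2 value, while Taf4b and Lhx8 did not differ beyond their spread. Lhx8 was below Nobox in all 6 libraries, at 0.398 to 0.526 of its level, and Figla was below Sohlh2 in all 6, at 0.0909 to 0.268 of its level. Tested as log2(FPKM + 1) with limma, 0 of the 6 genes passed, as did 0% of the 11894 genes tested, and without control 3 the same 5 genes as above did, where 25.8% of genes tested were called lower. Without AMH 3, Sohlh2 alone of the 6 did (adjusted p = 0.0375), where 19.9% were called lower.

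Among the 1469 genes that the deposited table assigns to a transcription factor family, Pou5f1 ranked 55 by control FPKM and Nobox 58. In the AMH libraries they ranked 71 and 94. Pou5f1 was the first of 15 POU genes in both groups, far above Pou2f1, at 8.42 ± 0.710 FPKM in control. Nobox was ninth of 232 homeobox genes, a family led here by the oocyte gene Obox1 at 1024 ± 180 FPKM in control. Lhx8 ranked 132 in control and 184 in AMH libraries, and Sohlh2 ranked 171 and 225. Figla ranked 419 and 678. The table gives Sohlh1 and Taf4b no family.

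Ratios between the genes within a library do not depend on library scaling. Of the 15 ratios among the 6 tested genes, 4 were lower in every AMH library than in every control and 11 overlapped. The share among ratios of other genes was not computed. All of these 4 but Figla to Taf4b have Pou5f1 as denominator, so they are not separate results. The Sohlh2 to Pou5f1 ratio was 0.299, 0.290 and 0.319 in controls and 0.228, 0.246 and 0.276 in AMH libraries. The groups were separate, at 0.302 ± 0.0150 against 0.250 ± 0.0239 (SD, n = 3 each). The Figla to Pou5f1 ratio was 0.0631 ± 0.0126 in the controls and 0.0363 ± 0.00991 with AMH, and the Figla to Taf4b ratio was 0.205 ± 0.0917 and 0.106 ± 0.0256. Nobox to Pou5f1 was the fourth such ratio, at 0.940 ± 0.180 and 0.746 ± 0.0732, and it was separate by a narrow margin, 0.799 in control 3 against 0.791 in AMH 3. The exact two-sided permutation p of these 4 was 0.1, the smallest that 3 against 3 libraries can give, and 0.375 after adjustment over the 15. Other ratios were nearly the same in both groups, such as Lhx8 to Nobox at 0.456 ± 0.0601 and 0.450 ± 0.0452 and Taf4b to Pou5f1 at 0.334 ± 0.0983 and 0.339 ± 0.0133.

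Set against the summed counts of the 29 oocyte markers, the differences between groups were smaller, and all 6 genes overlapped. Sohlh2 had 573, 617 and 564 counts per 1000000 oocyte-marker counts in the controls and 564, 611 and 553 in AMH 1, 2 and 3. Its means, 585 ± 28.3 and 576 ± 31.0 (SD, n = 3 each), differed by less than the spread between libraries. Nobox had 1571 ± 450 in control and 1467 ± 168 in AMH libraries, and Lhx8 had 896 ± 233 and 835 ± 168. Taf4b and Pou5f1 lay the other way, with higher means in AMH libraries. Taf4b had 1386 ± 284 and 1719 ± 261 per 1000000 marker counts, and Pou5f1 had 1845 ± 173 and 2206 ± 260. Figla kept a lower AMH mean, 43.8 ± 12.9 in control against 30.4 ± 11.1, although AMH 1 and AMH 2, at 38.2 and 35.2, were within the control range of 34.7 to 58.5. The lowest Figla value was that of AMH 3, 17.8. The marker list holds genes that FIGLA and NOBOX are known to activate, so this scale is not independent of the 2 factors.

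**Figure D2:**
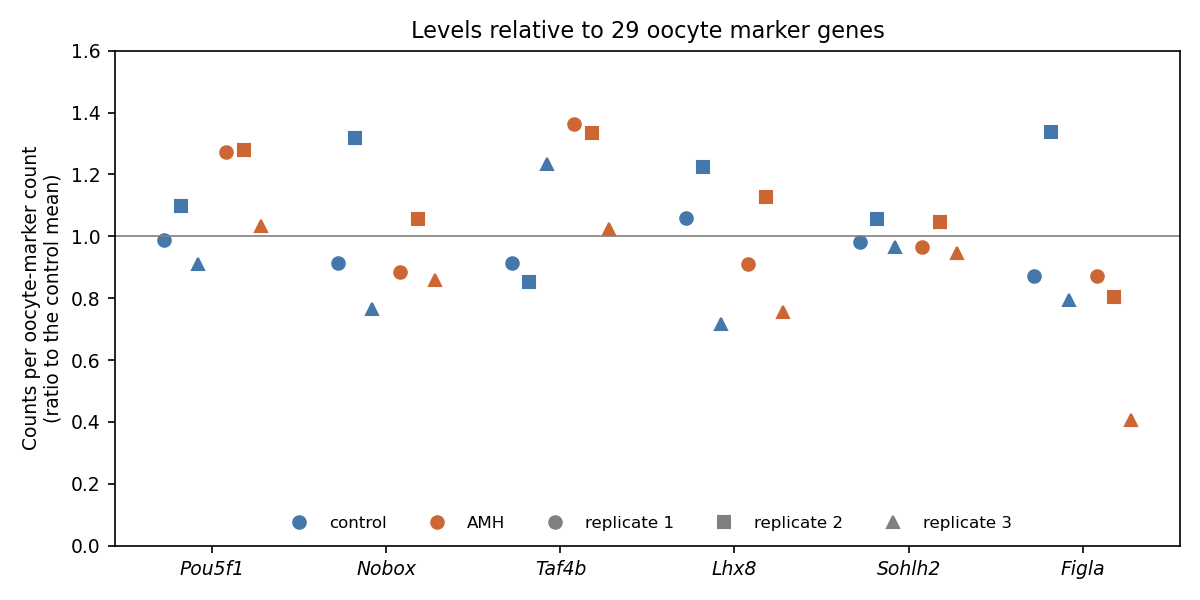
The vertical axis is each gene's counts per oocyte-marker count divided by the control mean, for 6 genes along the horizontal axis, with 1 point per library, colour for the group and shape for the replicate. Sohlh2 lies close to 1 in all 6 libraries, AMH 1 and AMH 2 lie above all controls for Pou5f1 and Taf4b, and AMH 3 is the lowest point for Figla.

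The fitted fold changes moved in the same way. With library sizes taken from the oocyte markers, edgeR gave log2 fold changes of -0.53 for Figla, -0.10 for Lhx8, -0.10 for Nobox, -0.02 for Sohlh2, 0.26 for Pou5f1 and 0.31 for Taf4b, with adjusted p of 0.281 to 0.958. On that scale the median over all genes tested was 0.74. With the summed cumulus and granulosa markers as a covariate, the values were -0.74 for Figla, -0.50 for Taf4b, -0.43 for Sohlh2, -0.16 for Lhx8, -0.15 for Nobox and -0.11 for Pou5f1, with adjusted p of 0.568 to 0.822. Taf4b was the only one of the 6 whose value lay further from 0 under the covariate than without it.

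**Figure D3:**
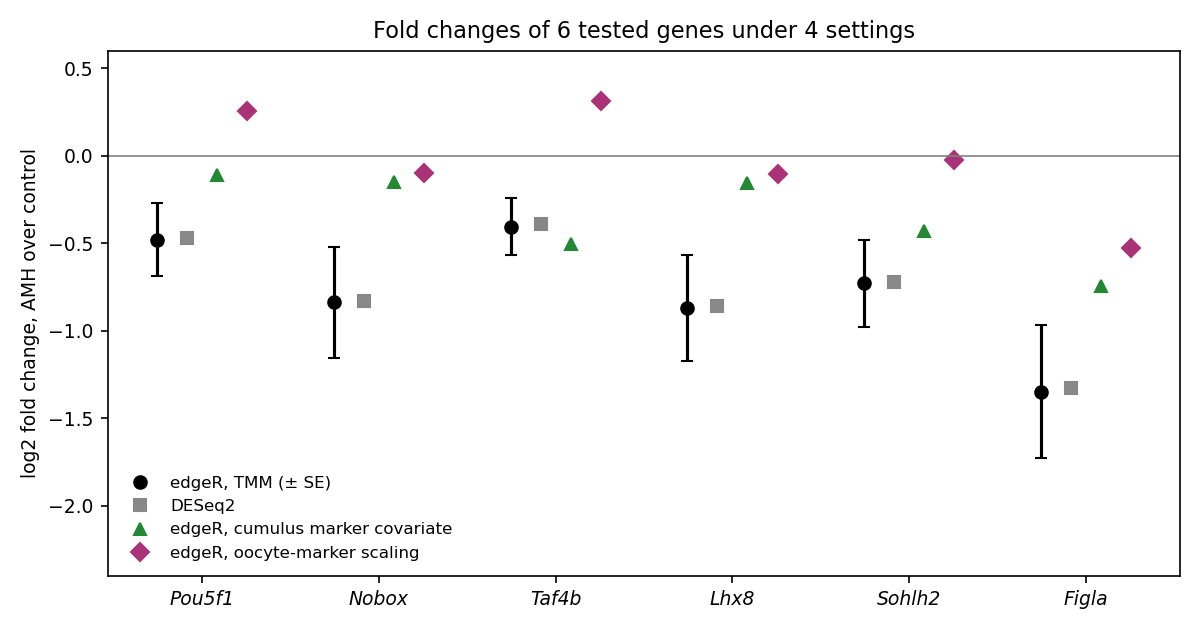
The vertical axis is the log2 fold change of AMH over control for the 6 tested genes, with edgeR's main values as circles with SE bars and 3 other settings as squares, triangles and diamonds without bars. DESeq2 nearly coincides with edgeR, and Pou5f1 and Taf4b turn positive when libraries are scaled to oocyte markers, at 0.26 and 0.31.

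Genes listed here as targets of FIGLA were all lower on average in AMH libraries. Whether FIGLA acts on each of them directly was not tested. None of the 7 listed passed edgeR's test, all 7 had negative log2 fold changes with a median of -1.10 (-0.39 under oocyte-marker scaling and -0.66 without control 2), and in all 7 every AMH library was below every control, as in 23.3% of all genes tested. The list shares 5 genes with the 29 oocyte markers, and 24 of those markers were likewise lower without overlap. Zp1, which encodes a zona pellucida protein, had 142, 230 and 124 CPM in the controls and 60.6, 64.5 and 106 CPM in AMH 1, 2 and 3. AMH 3 was the highest AMH library and control 3 the lowest control, but they did not cross. Oas1e, an oocyte-expressed member of the oligoadenylate synthetase family, had 1478 ± 285 CPM in the controls and 824 ± 197 CPM with AMH (SD, n = 3 each), with a log2 fold change of -0.84 (SE 0.24, edgeR adjusted p = 0.116). Oas1 genes lie in a family of close copies, so their counts are uncertain.

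All 10 genes listed here as targets of NOBOX also had negative values, with none past the test and a median log2 fold change of -0.69. Direct action of NOBOX on each was not tested either. In 7 of the 10 every AMH library was below every control, beside 23.3% of all genes. The median was -0.0034 under oocyte-marker scaling and -1.03 without AMH 3. The list shares 8 genes with the 29 oocyte markers, of which 24 were lower without overlap. Zar1, a maternal RNA-binding factor, had 1959 ± 505 CPM in the controls and 1111 ± 249 CPM with AMH (SD, n = 3 each). Fgf8, a growth factor that oocytes send to cumulus cells, had 4.48, 8.96 and 3.47 CPM in controls and 2.43, 2.34 and 2.41 CPM in AMH libraries. Its AMH values were nearly identical and lay below all controls, with a log2 fold change of -1.24 (SE 0.40, edgeR adjusted p = 0.116).

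The dimer partners and cofactors of these proteins were mixed. Of 9 E proteins, LIM-only genes and Ldb cofactors, 4 had positive and 5 negative values and none passed the test, with a median of -0.11 (0.15 with unscaled library sizes, 0.61 under oocyte-marker scaling, and -0.19 to -0.04 with 1 library left out). Lmo3 had 12.1, 12.8 and 12.8 CPM in controls and 4.84, 6.04 and 7.90 CPM in AMH libraries. The groups were well apart, at a log2 fold change of -1.01 (SE 0.27, edgeR adjusted p = 0.116). Lmo1 had 334 ± 59.8 and 213 ± 41.3 CPM. Both are LIM-only proteins, which bind Ldb factors as LIM homeobox proteins do. The 4 Id genes, whose products block E proteins from binding DNA, had positive values in 3 of 4, a median of 1.20 and none past the test. Id1 had 5.44 ± 3.53 and 12.5 ± 4.17 CPM, and Id3 had 55.8 ± 39.3 and 128 ± 52.9 CPM, both with overlap between the groups. The Id median was 0.20 with the cumulus marker covariate and 1.85 without control 3.

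Stat3, Tbpl2, Dynll1 and Sub1 are, with Figla, Nobox, Sohlh1 and Lhx8, a set of 8 factors known to turn pluripotent cells into oocyte-like cells. Stat3 had 508, 524 and 530 CPM in controls and 338, 380 and 475 CPM in AMH libraries, and Tbpl2, the oocyte form of the TATA-binding protein, had 17.6, 16.7 and 13.1 against 9.93, 10.6 and 11.5 CPM. Both were lower in every AMH library than in every control. Dynll1, a dynein light chain, was the exception, with 31.5, 28.3 and 37.9 CPM in controls and 101.4, 89.1 and 73.3 CPM in AMH libraries, all above every control. Its log2 fold change was 1.43 (SE 0.20), and its unadjusted p of 0.000201 still gave an edgeR adjusted p of 0.116. Sub1, a transcription coactivator, had 223 ± 47.4 and 133 ± 16.7 CPM, and it too was lower in every AMH library than in every control. In all, 3 of these 4 genes were lower and 1 was higher without overlap, beside 23.3% and 26.9% of all genes tested.

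Of the 18 tested genes among 20 of the TFIID and TBP family, to which Taf4b belongs by function, 17 had negative values, 11 had every AMH library below every control, beside 23.3% of all genes, and none passed the test. The median was -0.44, and it was 0.22 under oocyte-marker scaling and -0.66 without AMH 3. Taf5 had 185 ± 21.0 CPM in the controls and 113 ± 27.8 CPM with AMH, and Taf3 had 430 ± 88.5 and 263 ± 44.2 CPM. Both encode core TFIID subunits and were named for the smallest unadjusted p of the list. Their log2 fold changes were -0.71 each, while that of Taf4b, -0.40, was near the list median. Taf4, the broadly expressed paralog of Taf4b, had 34.3, 33.2 and 44.7 CPM in controls and 15.4, 17.8 and 53.5 CPM in AMH libraries. AMH 3 was the highest of the 6 and AMH 1 and AMH 2 the lowest, so Taf4 overlapped. It was named after its values were seen. Per length, Taf4 had 7.75 FPKM in control against 14.3 for Taf4b.

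Of 14 other genes of the POU family, 8 were tested, 7 with negative values, a median of -0.66 (-0.02 under oocyte-marker scaling) and none past the test. Pou2f3 had 1.01 ± 0.143 CPM in the controls and 0.514 ± 0.157 CPM with AMH, and Pou4f1 had 17.4 ± 4.49 and 9.61 ± 2.09 CPM. Both are POU factors known from epithelial and neural cells, and neither overlapped between groups, but they were named for the smallest unadjusted p of the list. Of the 8 tested, 3 were lower and 1 was higher in every AMH library than in every control, beside 23.3% and 26.9% of all genes. Of 11 other LIM homeobox genes, 6 were tested, 5 with negative values, with a median of -0.70 (0.02 under oocyte-marker scaling) and none past the test. Isl2, a LIM homeobox factor known from motor neurons, had 80.5 ± 13.8 and 49.7 ± 9.71 CPM and, per length, stood above Lhx8 at 35.2 FPKM in the controls. Lhx5 had 1.71 ± 0.116 and 0.929 ± 0.206 CPM.

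Companions of Pou5f1 in pluripotent cells did not share 1 direction. Of 14 such genes, 12 were tested, 8 with negative and 4 with positive values, a median of -0.42 (0.34 under oocyte-marker scaling) and none past the test. Sall4, a zinc finger factor that oocytes express strongly, had 985 ± 190 CPM in the controls and 553 ± 86.4 CPM with AMH, with a log2 fold change of -0.83 (SE 0.22, edgeR adjusted p = 0.116). Klf2, a Krüppel-like factor also made by many somatic cells, had 21.3, 11.0 and 23.5 CPM in controls and 56.8, 59.2 and 36.7 CPM in AMH libraries. All AMH libraries were above all controls for Klf2, at 1.45 (SE 0.34, adjusted p = 0.116). Per length, Sox2 and Nanog, the usual partners of Pou5f1, were at 0.528 and 0.0688 FPKM in the controls, far below its 44.6 FPKM.

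**Figure D4:**
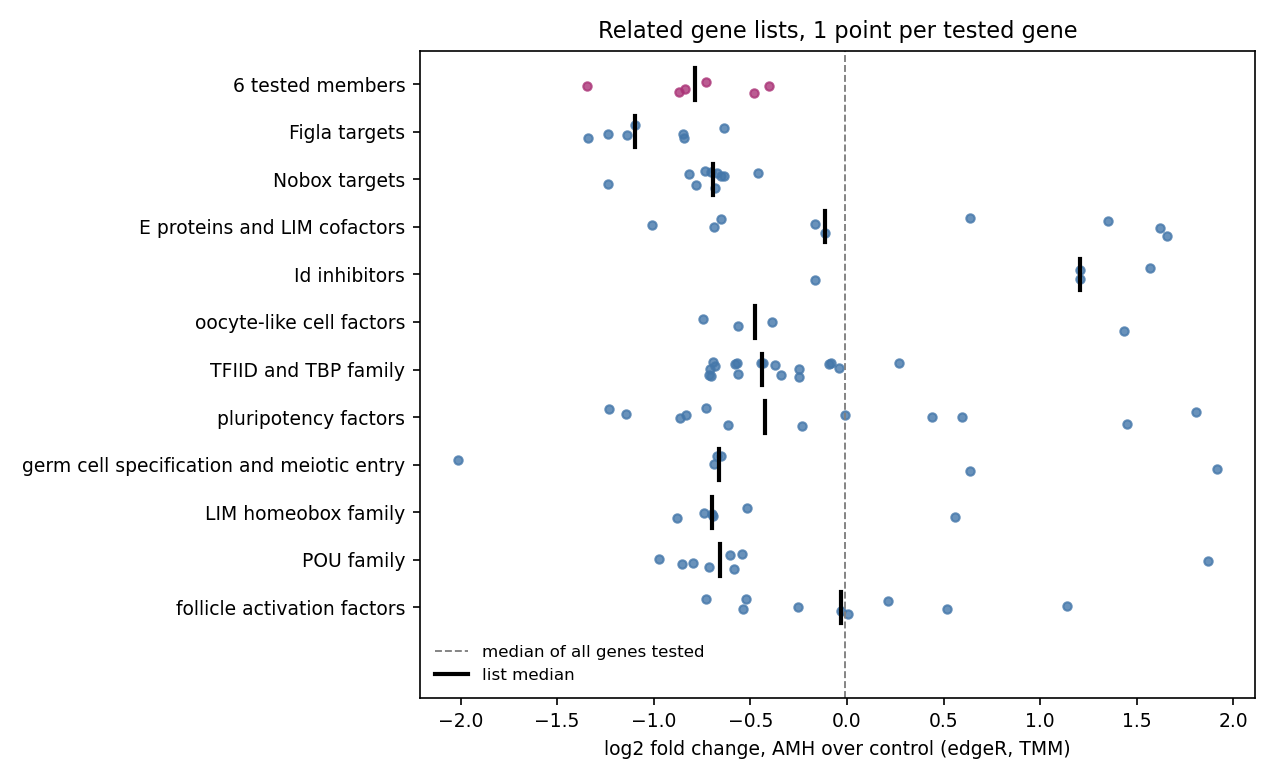
The horizontal axis is edgeR's log2 fold change of AMH over control, with 1 point per tested gene, 1 line of points per list, a black bar at each list median and a dashed line at the median of all genes tested, -0.01. All tested Figla and Nobox targets lie below 0 and Id genes mostly above. With scaling to oocyte markers the medians of 7 lists that were negative (TFIID, pluripotency, germ cell, LIM homeobox, E protein, oocyte-like cell and follicle activation factors) turned positive. Those of the E protein and follicle activation lists also did so with unscaled library sizes. The median of all genes tested rose as well, to 0.74 with oocyte-marker scaling and 0.26 with unscaled sizes.

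Of 11 germ cell specification and meiotic entry genes in the table, 6 were tested, 4 with negative values and a median of -0.66 (0.08 under oocyte-marker scaling), with none past the test. Tfap2c, a factor of primordial germ cells, had 96.8 ± 13.7 and 60.7 ± 14.7 CPM in the controls and AMH libraries, and Prdm1 had 35.4 ± 6.25 and 22.5 ± 2.36 CPM. Stra8, the retinoic acid target that opens meiosis in fetal oocytes, was at 9 counts over all libraries. The 9 follicle activation factors were split, with 5 negative and 4 positive values, a median of -0.03 (0.25 with unscaled library sizes, 0.74 under oocyte-marker scaling, and -0.16 to 0.04 with 1 library left out) and none past the test. Kit, the oocyte receptor for Kit ligand, had 572 ± 53.7 CPM in the controls and 346 ± 97.0 CPM with AMH. Cdkn1b, a cell cycle inhibitor of dormant oocytes, had 6.91 ± 2.23 and 15.2 ± 7.01 CPM with overlap.

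The pattern over the 6 libraries was shared most closely between Nobox and Pou5f1, with a Pearson r of log2 CPM of 0.984. Nobox and Lhx8 followed at 0.968 and Sohlh2 and Pou5f1 at 0.961. Taf4b was least like the others, at 0.543 with Lhx8 to 0.828 with Sohlh2. Among 12767 candidate protein-coding genes, the most like Sohlh2 were Snx11 and Gyg (r of 1.00 and 0.999), and 3047 had r above 0.9 with it. For Pou5f1 they were Pdpn and Gstcd (0.997 and 0.996, 2064 above 0.9), and for Nobox they were Fbxw13 and Pdzk1 (0.998 and 0.995, 1439 above 0.9). For Lhx8, Atp10b had an r of 0.997, and 1422 genes were above 0.9. Figla had the companion AW551984 (0.997, 515 above 0.9), and Taf4b had Fbln5 and Ido2 (0.993 and 0.991, 495 above 0.9). These r values describe 6 libraries that share their scaling and the control and AMH groups, so with so many genes close to each pattern they set none of these pairs apart.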

How the data were processed

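Oocyte RNA amplified with a SMART v4 kit was sequenced in 6 libraries, per the labels' protocols, which allow for both directional and non-directional libraries without saying which was used. The authors deposited whole-number counts per gene and FPKM values. The submitters' processing notes name DESeq2 1.20.0, featureCounts 1.5.0-p3 and HISAT2 2.0.5, with GRCm38 and mm10 as builds; how each was set is not given in the sources used here. Each deposited FPKM equals count over gene length and 1 effective library size, to within 2.04e-06 percent. That size was 0.924 to 0.997 of the total in controls and 1.05 to 1.18 in AMH libraries.

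Counts were tested with edgeR 4.0.16 (R 4.3.3, quasi-likelihood, robust, TMM, default filterByExpr, a group term only), and p-values were adjusted by Benjamini-Hochberg over 18868 genes, with a threshold of 0.05. Genes that exceeded 1 FPKM in 3 or more libraries were tested with limma 3.58.1 after adding 1 and taking log2. CPM was computed on TMM-scaled sizes, and r on log2 CPM with a prior count of 2. The tests were first tried on simulated data. Alternatives were DESeq2 1.42.0, limma-voom, other scalings and filters, a cumulus marker covariate, a replicate block and leaving out each library. No pair of libraries agreed within sampling noise, so none was merged. The 7 genes and all lists were chosen with earlier results of these data known. From each list the text names the 2 genes of smallest unadjusted p, and for each gene the 2 others of highest r, of which 1 each for Lhx8 and Figla is not reported here. Promoter words were searched on both strands of RefSeq windows, cut before GENCODE M21 exons for printing.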

Additional observations from a re-analysis of the deposited data

How the results depend on the processing

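The count of the 7 genes past the edgeR test was 0, and it was also 0 with library sizes alone, upper-quartile scaling, oocyte-marker scaling, no low-count filter, a minimum of 1 CPM in 3 libraries, limma-voom and the cumulus marker covariate. DESeq2 called 2 of them and 4535 genes in all, and limma-voom with sample quality weights called 6 and 14101, where 35.7% of genes tested were called lower. Leaving out each library in turn gave 0 to 5 of the genes and 0 to 7513 genes in all with edgeR, and 0 to 5 of the genes in the FPKM test. In each case the upper value came without control 3. DESeq2 with each library left out, chosen after seeing the data, gave 0 to 5 of the genes, and 267, 279 and 7169 genes in all without AMH 1, 2 and 3 and 506, 1456 and 9686 without controls 1, 2 and 3. The cause of these shifts was not tested. The log2 fold changes of 2 genes reversed under oocyte-marker scaling: Pou5f1 to 0.26 and Taf4b to 0.31. The median of the 6 genes moved from -0.78 to -0.06 there, and that of all genes tested from -0.01 to 0.74. With the cumulus marker covariate the median of the 6 was -0.29. The number without overlap went from 4 to 0 under oocyte-marker scaling, and to 3 with library sizes alone or a minimum of 1 CPM in 3 libraries. It was 6 without control 3 or without AMH 3, where 35.1% and 34.5% of all genes tested were lower without overlap, beside 23.3% with all libraries. For the other settings that share is not given here. With the replicate block 0 of the genes and 0 genes in all passed (adjusted p of 0.200 to 0.248 for the 6). Deviations of same-numbered libraries from their group means correlated at 0.0596, -0.103 and -0.250. With 3 libraries per group the deviations within a group depend on each other. They therefore cannot settle whether the numbers pair the samples, and control 3 and AMH 3 were the most alike pair. Depth limits Sohlh1, with at most 10 counts in a library, and Figla, with 54 to 232.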
